A study of Homo sapiens with 6 samples.

Results

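The mRNAs of 8 RNA-binding proteins that act on AU-rich elements or Pumilio elements, namely ELAVL1, TIA1, TIAL1, ZFP36, ZFP36L1, ZFP36L2, KHSRP and PUM2, were examined in CELF1 RIP-Seq data of human melanoma cells. They were chosen by name, and are 8 of 19704 protein-coding genes whose annotation includes a 3′ UTR. Wherever 3 values follow each other below, they belong to SK-Mel-103, UACC-62 replicate 1 and UACC-62 replicate 3, in this order. The exons of these mRNAs held 707, 535 and 654 bins of the 816781, 780750 and 862731 listed. SK-Mel-103 and UACC-62 are established human melanoma cell lines, and the sample labels name no treatment and no genetic change for either. In each line, RNA bound to endogenous CELF1 (also called CUGBP1) was recovered from formaldehyde-fixed cells with an antibody to CELF1 (IP) and compared with the RNA of the same lysate (input). The series holds 1 IP and 1 input of SK-Mel-103 and 2 of each of UACC-62, numbered replicates 1 and 3. As formaldehyde can also join RNAs to CELF1 through other proteins, IP reads were not limited to direct contacts. No control antibody was among the samples used here.

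Each IP sample was deposited as a list of 20-nt bins that had passed a test of IP reads against input reads. A bin with more than 30 IP reads is called a peak below, and a bin that was a peak in all 3 IP samples is called a common peak. For the 3′ UTR of each mRNA, log2 IP/input was taken as the reads summed over its listed bins with 1 read added, each divided by the reads in all listed bins of that IP or input. Reads were summed over all annotated 3′ UTRs of a gene, and the lengths given are those of its canonical transcript. A value above 0 stands for a larger share of IP than of input reads. Bins that did not pass are unknown, so that every ratio is conditional on its bins being listed. With a single SK-Mel-103 sample, no test between the lines was possible. Values of each sample are given with exact (Clopper-Pearson) 95% binomial intervals, which cover counting error only, and the SD over the 2 UACC-62 replicates may be technical, as the labels do not state whether they came from separate cultures.

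AU-rich elements are stretches of U and A, often with the pentamer AUUUA, that set how long an mRNA persists. ELAVL1 (HuR) is known to bind such stretches and to stabilise mRNAs, TIA1 and TIAL1 (TIAR) bind U-rich RNA and silence translation, and the zinc-finger proteins ZFP36 (tristetraprolin), ZFP36L1 and ZFP36L2 and the KH-domain protein KHSRP promote decay. PUM2 belongs to the Pumilio proteins, which bind UGUANAUA and repress their targets. CELF1 itself is known for binding GU-rich elements in 3′ UTRs and, in other systems, for favouring decay. For melanoma cells, the paper that reported these data describes CELF1 as stabilising DEK mRNA. It also reports that most bound mRNAs whose levels changed after CELF1 depletion went down. Several of these proteins are known to act on the mRNAs of other RNA-binding proteins, or on their own.

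The sequences below show 1 bin of each 3′ UTR that was read in all samples, chosen as the common peak, or else the bin, with the highest lowest-of-3 IP reads. In a single sample another bin could hold more reads. They are written 5′ to 3′ on the transcript strand of GRCh37, with any AUUUA in capitals. In ELAVL1 this bin is chr19:8027181-8027200 (minus strand) and in ZFP36L1 chr14:69254381-69254400 (minus). In ZFP36L2 it is chr2:43450761-43450780, in KHSRP chr19:6414501-6414520, in PUM2 chr2:20450381-20450400, in TIA1 chr2:70439341-70439360 and in TIAL1 chr10:121335001-121335020, all on the minus strand. ZFP36 had no listed bin, and none is shown.
ELAVL1: cuuuugcAUUUAagaccauu
ZFP36L1: uaaaccccguuuuuucaaga
ZFP36L2: uugguuucauugccaccacu
KHSRP: uugccaccuuccaaccuacc
PUM2: uuugauagcucagcAUUUAa
TIA1: gucccaucuccacuguuauc
TIAL1: ugucuucuaguucugccuuu

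Over the 8 mRNAs, ELAVL1 stood above the others in the IP, KHSRP was slightly above input, ZFP36L1, ZFP36L2 and PUM2 lay close to input, and TIA1 and TIAL1 lay below it. ZFP36 was listed in no sample. Common peaks were found in the 3′ UTRs of 2 of the 8 mRNAs, ELAVL1 with 39 and ZFP36L1 with 3, against 1647 of 19704 genes (8.36%). A common peak requires listed bins in all 3 samples, which 8964 of those genes had, so that the share among genes able to hold one is higher. Among the 7 mRNAs with listed 3′ UTR bins in all 3 samples, 2 (ELAVL1 and KHSRP) were above 0 in every sample, where the share over 8964 genes was 33.2%. A further 3 (TIA1, TIAL1 and ZFP36L1) were below 0 in every sample, where the share over genes was 42.1%, and ZFP36L2 and PUM2 changed sign between the lines. Both counts, of 7 mRNAs, lay near the shares over all genes. The median of the 7 was 0.30, −0.13 and −0.22, against 0.0, −0.38 and −0.17 over the 8964 genes.

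**Figure D1:**
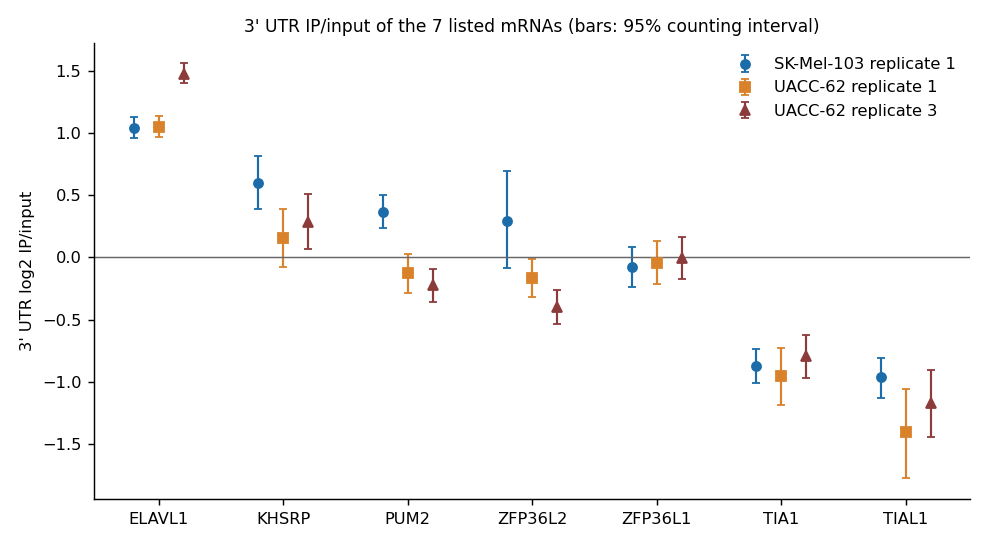
3′ UTR log2 IP/input (y axis) of the 7 listed mRNAs (x axis) in SK-Mel-103 replicate 1 (circles) and UACC-62 replicates 1 (squares) and 3 (triangles), with 95% counting intervals as bars and a line at 0. The ELAVL1 points lie between 1.04 and 1.48 and the TIA1 and TIAL1 points between −1.40 and −0.80.

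ELAVL1 (ENSG00000066044), the stabilising member of the group, lies on the minus strand of chromosome 19 (chr19:8023457-8070543), with an annotated 3′ UTR of 4913 nt in a single exon (chr19:8023457-8028369). Its 3′ UTR held 4096, 3804 and 6908 IP reads against 1535, 1648 and 1529 input reads. Log2 IP/input was 1.04 (0.96 to 1.13), 1.05 (0.97 to 1.13) and 1.48 (1.40 to 1.56). The intervals of SK-Mel-103 and UACC-62 replicate 1 overlapped, whereas the UACC-62 replicates lay apart from each other, with a mean of 1.26 ± 0.30 (SD, n = 2), where the median SD over genes was 0.26. The ratio was above that of 80.7%, 79.6% and 80.3% of the genes listed in each sample. Its lowest value of the 3 exceeded that of 88.9% of the 8964 genes listed in all samples. Its 39 common peaks outnumbered those of 99.1% of all 19704 genes, listed or not.

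The ELAVL1 reads covered a fraction of the annotated 3′ UTR. All 39 common peaks had their centres between 18 and 1218 nt from the first base of the stop codon, from which all distances are counted. Peaks numbered 44, 42 and 54 along this exon, and the last lay at 1218 nt in every sample. Beyond it, only 15, 3 and 7 bins were listed, with at most 8 IP reads each, which came to 2.08%, 0.352% and 0.490% of the IP reads of this 3′ UTR. Beyond the midpoint of the 3′ UTR lay 1.58%, 0.352% and 0.356% of the IP reads and 0.785%, 0.262% and 0.208% of the input reads. As input is known in listed bins only, these shares cannot show whether the input by itself had this outline. ELAVL1 is known to be made with 3′ UTRs of different lengths through alternative polyadenylation. The poly(A) signal AUUAAA occurs at 235, 1186 and 4676 nt, and the 5 copies of AAUAAA lie between 4259 and 4888 nt. The AUUAAA at 1186 nt lies in the last common peaks, and that at 235 nt in a bin listed in all samples, past which reads continued. Among 3′ UTRs of like length, 90.3% held AUUAAA and 98.4% held AAUAAA. Whether the end of the reads is related to any of these copies was not tested. Listed bins that share a base with the AUUAAA at 1186 nt held 493, 523 and 690 IP reads and 99, 122 and 144 input reads. This copy is shown with its flanks (chr19:8027168-8027193, minus strand) and the signal in capitals.
ELAVL1 poly(A) signal: auuuaagaccAUUAAAuuugauuuug

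**Figure D2:**
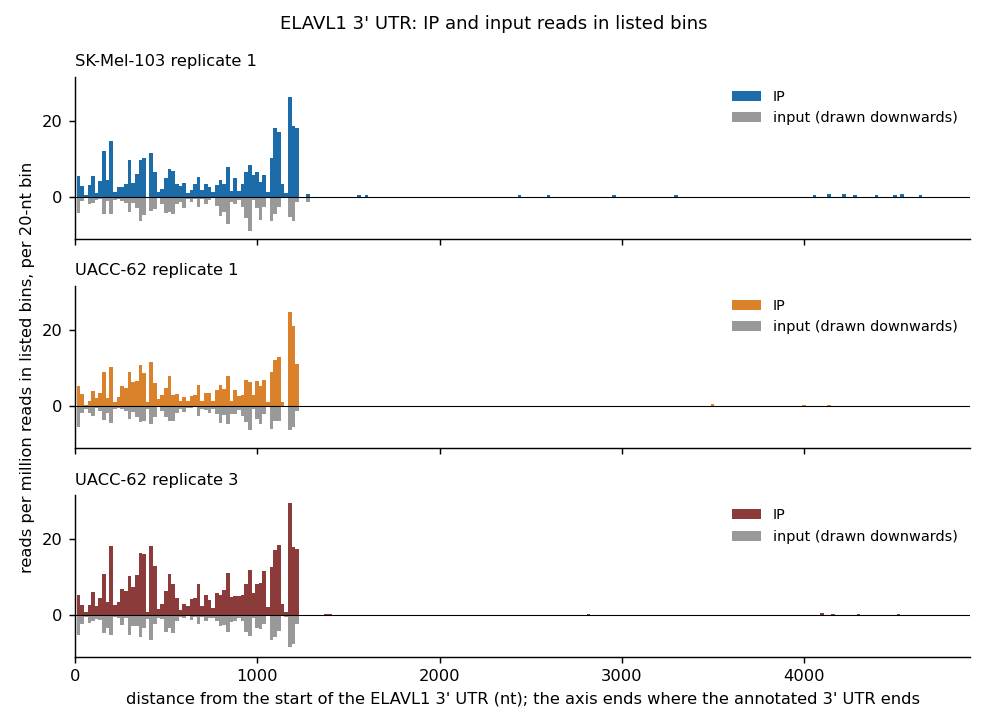
IP (coloured, upwards) and input (grey, downwards) in RPM (relative to all reads in listed bins), for each listed 20-nt bin of the ELAVL1 3′ UTR (y axis), against the distance from its start in nt (x axis, ending at the annotated end), with a panel for each sample. Reads fill the stretch up to the last common peak at 1218 nt, with the highest bin at 1178 nt in each panel, and are nearly missing from there to the annotated end.

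Adjacent common peaks of ELAVL1 joined into 14 blocks, of which 4 were single bins and the longest measured 140 nt. The last block before the reads ended, chr19:8027141-8027200, had the highest ratio in SK-Mel-103 and UACC-62 replicate 1. It held 691, 648 and 942 IP reads against 110, 136 and 164 input reads, and its log2 IP/input was 2.27, 2.09 and 1.82. In UACC-62 replicate 3 the block from 658 to 678 nt was higher, at 2.08. The bin shown above, with AUUUA, is part of the last block. It was the highest of the 3′ UTR in all samples, at 288, 282 and 429 IP reads and 45, 66 and 76 input reads. The second block from the end (chr19:8027241-8027300) had 499, 385 and 703 IP reads and log2 values of 1.71, 1.26 and 1.55. The block next to the stop codon, from 18 to 38 nt, was the lowest in both UACC-62 samples, at 0.59, 0.21 and 0.06. Over the 39 common peaks taken singly, the median log2 was 0.98, 1.08 and 1.53, and 33 peaks were above 0 in all 3 samples. The other 6 were at or below 0 in at least 1 sample, and the block from 778 to 838 nt was at 0.02 in SK-Mel-103. The UACC-62 replicates shared 42 of the 56 ELAVL1 peaks called in either, which were all 42 peaks of replicate 1.

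KHSRP (ENSG00000088247), which binds AU-rich elements and promotes decay, lies at chr19:6413113-6424822 on the minus strand, with a 3′ UTR of 1925 nt. Its 3′ UTR held 544, 353 and 504 IP reads and 276, 284 and 255 input reads. Log2 IP/input was 0.60 (0.39 to 0.82), 0.16 (−0.07 to 0.39) and 0.28 (0.06 to 0.51), and the UACC-62 mean was 0.22 ± 0.09 (SD, n = 2). All 3 values were above 0, but the interval of UACC-62 replicate 1 included 0. No bin was a common peak, and no peak was shared by the UACC-62 replicates, which had 1 and 3. The KHSRP bin shown above came closest, with 29, 33 and 30 IP reads around the threshold of 30 and 10, 7 and 8 input reads, for log2 values of 1.07, 1.93 and 1.09. These 20 bases hold no motif of those searched below.

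Within the KHSRP 3′ UTR, the ratio fell with distance from the stop codon in each sample. Nearer the stop codon than the midpoint, log2 IP/input was 1.16, 0.94 and 1.06, and beyond the midpoint it was −0.07, −0.46 and −0.34. The distal part took 35.3%, 43.9% and 43.8% of the IP reads but 56.2%, 67.6% and 67.5% of the input reads. The groups of values did not overlap.

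PUM2 (ENSG00000055917), at chr2:20448452-20551995 on the minus strand, has a 3′ UTR of 2851 nt. It held 1254, 666 and 1108 IP reads and 750, 652 and 797 input reads, and 60 of its bins were listed in all 3 samples. Log2 IP/input was 0.37 (0.24 to 0.50), −0.13 (−0.28 to 0.03) and −0.22 (−0.36 to −0.09). The SK-Mel-103 value lay above both UACC-62 values, whose mean was −0.17 ± 0.07 (SD, n = 2), and its interval overlapped neither of theirs. There was a single peak, in SK-Mel-103 only, with 42 IP and 13 input reads at 1217 nt, where the UACC-62 samples had 13 and 21 IP reads. As in KHSRP, the stretch nearer the stop codon had the higher ratio in every sample, at 0.67, 0.14 and −0.07, against −0.01, −0.44 and −0.39 beyond the midpoint.

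**Figure D3:**
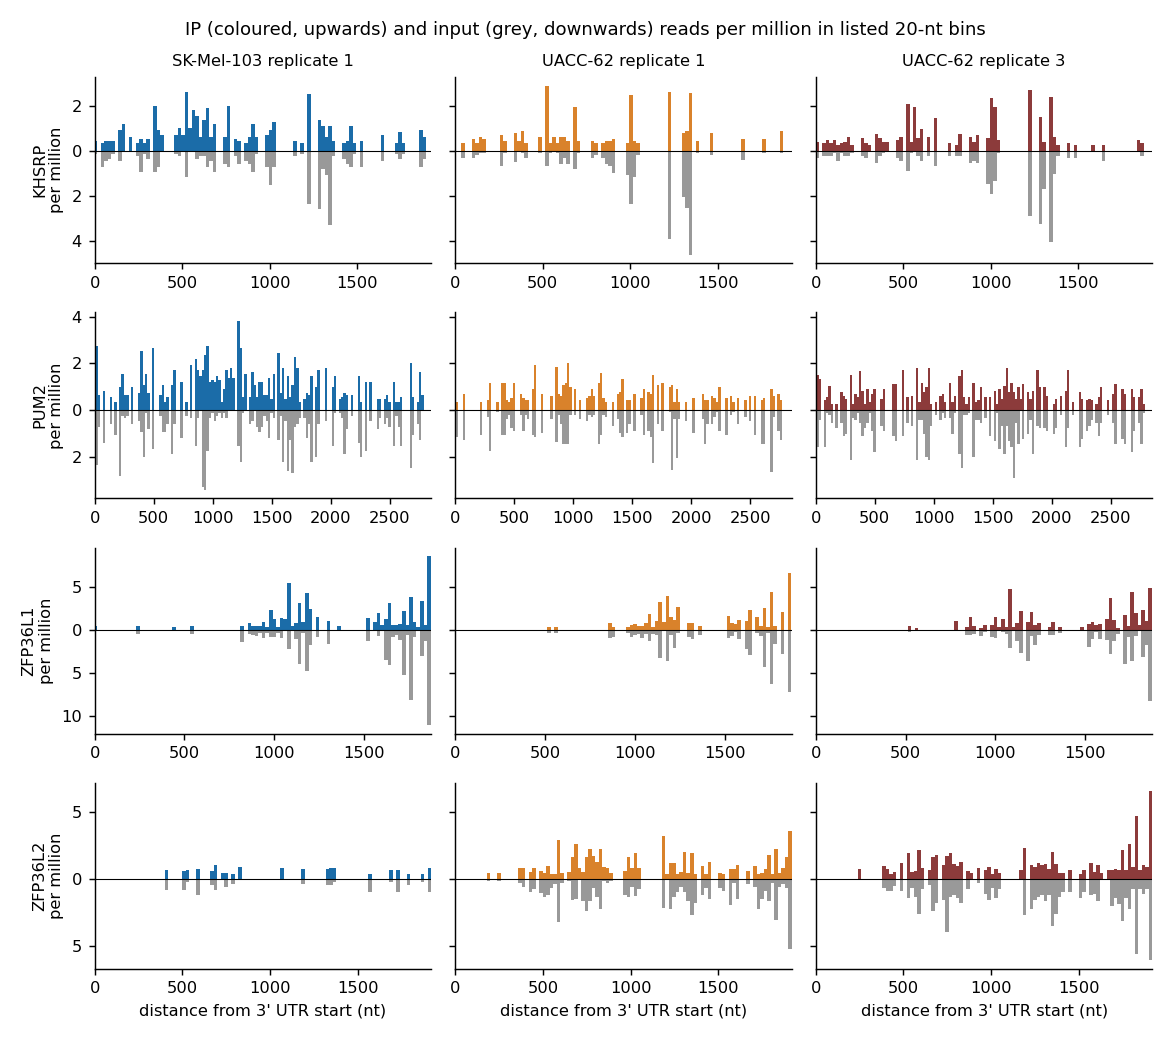
IP (coloured, upwards) and input (grey, downwards) in RPM (relative to all reads in listed bins), for each listed 20-nt bin (y axis), against distance from the 3′ UTR start in nt (x axis), for KHSRP, PUM2, ZFP36L1 and ZFP36L2 (rows) in the 3 samples (columns). IP exceeds input mainly in the proximal part of KHSRP, IP and input follow each other in ZFP36L1, and few ZFP36L2 bins are listed in SK-Mel-103.

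The members of the ZFP36 family, which bind AU-rich elements and recruit the deadenylation machinery, differed in whether and where they were listed. ZFP36L1 (ENSG00000185650, chr14:69254377-69262970, minus strand) has a 3′ UTR of 1874 nt, with 717, 580 and 743 IP reads and 583, 535 and 460 input reads. Its log2 IP/input was −0.08 (−0.24 to 0.08), −0.04 (−0.21 to 0.13) and −0.01 (−0.18 to 0.16). All 3 intervals included 0. The UACC-62 mean of −0.02 ± 0.02 (SD, n = 2) turned to 0.09 when each sample was centred on the median of all genes listed in that sample. ZFP36L1 thus had common peaks without being above input. The common peak at 1861 nt, centred 11 nt past the start of its only AAUAAA, had 95, 76 and 71 IP reads and 94, 74 and 74 input reads. The common peak at 1761 nt had 43, 51 and 64 IP and 69, 64 and 32 input reads, and that at 1141 nt had 35, 37 and 33 IP and 34, 33 and 24 input reads. Beyond the midpoint of this 3′ UTR lay 93.3%, 96.4% and 91.1% of the IP reads, and also 93.1%, 95.5% and 94.8% of the input reads. The listed bins numbered 9, 4 and 7 before the midpoint and 34, 32 and 34 beyond it. As input outside listed bins is unknown, its shares cannot show whether the input by itself was shifted towards the 3′ end.

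ZFP36L2 (ENSG00000152518, chr2:43449541-43453745, minus strand), with a 3′ UTR of 1920 nt, differed in level between the lines. It held 147, 722 and 979 IP reads and 92, 725 and 794 input reads. Its listed bins covered 420 nt in SK-Mel-103 against 1220 and 1200 nt in UACC-62. Levels were taken as RPM (relative to all reads in listed bins) per listed kb, since reads outside listed bins are unknown. On this scale, the input level was 25.9 in SK-Mel-103 against 58.5 and 74.3 in UACC-62, and the IP level was 31.9 against 52.2 and 56.5. In such bulk samples, fewer cells with an mRNA and less of it per cell cannot be told apart. The log2 ratio was 0.30 (−0.08 to 0.69), −0.16 (−0.31 to −0.01) and −0.40 (−0.53 to −0.26), with a UACC-62 mean of −0.28 ± 0.16 (SD, n = 2). Over the listed bins, the level was thus lower and the ratio higher in SK-Mel-103, although the interval of its ratio included 0 and overlapped that of UACC-62 replicate 1. No peak was called in SK-Mel-103, while 3 of the 6 bins that were peaks in either UACC-62 sample were so in both. The peak at the very end of the 3′ UTR, at 1909 nt, had 40 and 94 IP reads against 53 and 54 input reads in UACC-62, while SK-Mel-103 had 9 and 8.

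ZFP36 (ENSG00000128016, chr19:39897487-39900052, plus strand), whose mRNA is known to be induced for a short time by growth factors, had no listed bin in any exon in any sample. A gene with few reads in either library would be left out of lists of this kind, so that neither presence nor binding can be read from this. Coding regions of the other family members were also nearly unlisted. That of ZFP36L1 had 43 IP reads in SK-Mel-103, 5 in UACC-62 replicate 1 and no listed bin in replicate 3. That of ZFP36L2 had no listed bin in SK-Mel-103, and 20 and 15 IP reads in UACC-62.

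TIA1 (ENSG00000116001, chr2:70436576-70475792, minus strand) and TIAL1 (ENSG00000151923, chr10:121331314-121356541, minus strand), the U-rich binding silencers, were the lowest of the 7 in every sample. The TIA1 3′ UTR of 3278 nt held 751, 246 and 512 IP reads and 1063, 428 and 548 input reads. Its log2 IP/input was −0.88 (−1.01 to −0.74), −0.95 (−1.19 to −0.73) and −0.80 (−0.97 to −0.62), so that all samples lay below 0 and overlapped each other within counting error. For TIAL1, with an annotated 3′ UTR of 2203 nt, the IP reads were 530, 94 and 199 and the input reads 798, 224 and 276. Its log2 values of −0.96 (−1.13 to −0.80), −1.40 (−1.77 to −1.06) and −1.17 (−1.44 to −0.90) were likewise all below 0. The UACC-62 means were −0.87 ± 0.11 for TIA1 and −1.28 ± 0.17 for TIAL1 (SD, n = 2). Among the genes listed in each sample, the TIA1 ratio was above that of 17.2%, 30.9% and 28.4%. For TIAL1 these shares were 14.6%, 19.4% and 19.3%, so that many genes lay lower than either. Each had 2 peaks in SK-Mel-103 and none in UACC-62. In the TIA1 bin shown above, input exceeded IP in every sample, at 54, 44 and 40 against 17, 12 and 14 reads. In that of TIAL1, IP and input were level in SK-Mel-103 (56 and 53 reads) and input was higher in UACC-62 (43 and 52 against 15 and 30).

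Both mRNAs were less listed in UACC-62, with 79, 39 and 68 bins of TIA1 and 59, 15 and 26 of TIAL1. Per listed kb, the input level of TIA1 was 79.6 RPM in SK-Mel-103 against 54.0 and 45.3 in UACC-62, and that of TIAL1 was 80.0 against 73.5 and 59.6. Their UACC-62 replicates also shared fewer bins, with 25 of 82 TIA1 bins and 7 of 34 TIAL1 bins listed in both, against 67 of 78 for ELAVL1. The TIA1 3′ UTR lies within the span of C2orf42 on the same strand but in none of its exons. In TIAL1, 24.4% of the 3′ UTR bases had a near copy elsewhere in the genome (at least 40 nt at 95% identity), and these bases held 26 of its 823 IP reads.

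**Figure D4:**
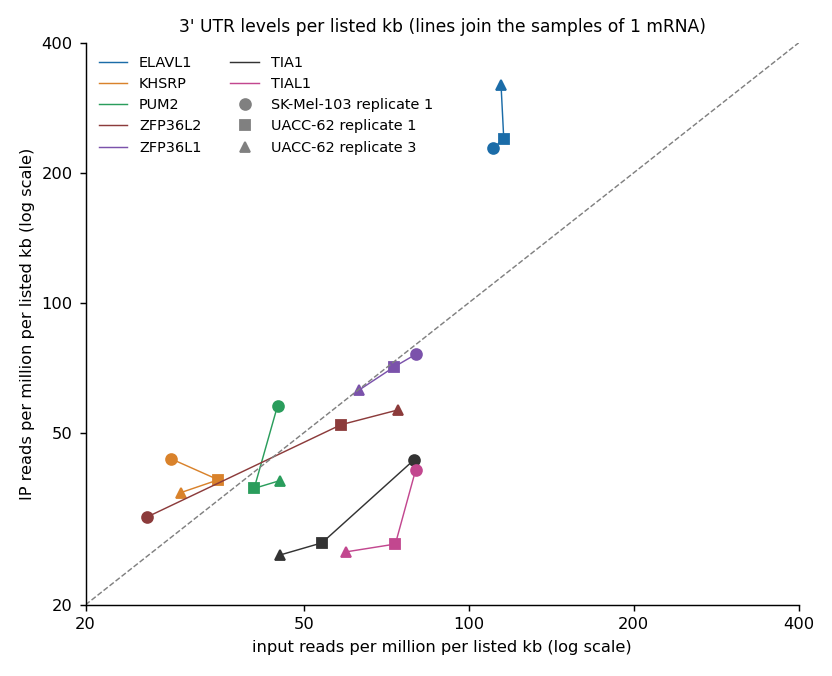
IP level (y axis) against input level (x axis) in RPM per listed kb of 3′ UTR, both on log scales, for the 7 listed mRNAs (colours) in the 3 samples (symbols), with lines joining the samples of 1 mRNA and a dashed line of equality. ELAVL1 lies above the line in all samples (input 111 to 116), TIA1 and TIAL1 lie below it, and ZFP36L2 has its SK-Mel-103 point (input 25.9) to the left of its UACC-62 points (58.5 and 74.3).

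Ranked by the UACC-62 mean, the order was ELAVL1, KHSRP, ZFP36L1, PUM2, ZFP36L2, TIA1 and TIAL1. The replicate values of PUM2 and ZFP36L2 overlapped, and those of the other neighbours did not. By counting error alone, KHSRP and ZFP36L1 also overlapped, as did ZFP36L1 and PUM2, and TIA1 and TIAL1. ELAVL1 was separated from KHSRP, and ZFP36L2 from TIA1, in both replicates and beyond the counting intervals. In SK-Mel-103 the order was the same at both ends, with PUM2 and ZFP36L2 before ZFP36L1.

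Ratios of the coding region were compared with those of the 3′ UTR, as both parts come from the same mRNAs. Both were listed in all samples for 5 of the mRNAs, and the 3′ UTR was higher in every sample for ELAVL1, KHSRP and PUM2, 3 of 5, where the share over 7317 genes was 44.4%. For ELAVL1 the coding region was at −0.59, −0.46 and 0.16, and the 3′ UTR exceeded it by 1.63, 1.51 and 1.31. For KHSRP the coding region was at −1.05, −1.19 and −0.72, and the 3′ UTR was higher by 1.65, 1.35 and 1.0. In the sum over all exons, KHSRP was below input in both lines, at −0.51 for SK-Mel-103 and −0.63 as the mean of UACC-62. For PUM2 the coding region was at −0.78, −0.93 and −0.94 and the difference was 1.15, 0.80 and 0.72, so that the 3′ UTR was the higher part also in the samples where it lay below 0. TIA1 and TIAL1 showed no common direction, with differences of −0.29, −0.07 and 0.49 and of 0.48, −0.13 and 0.33.

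**Figure D5:**
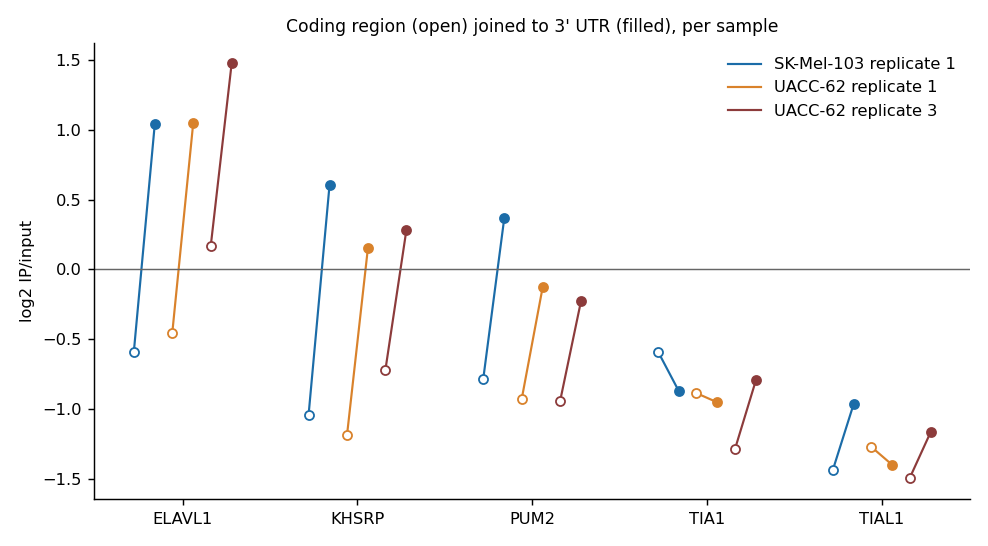
Log2 IP/input (y axis) of the coding region (open circles) joined to that of the 3′ UTR (filled circles) for the 5 mRNAs with both listed in all samples (x axis), with a colour for each sample. Every line rises for ELAVL1, KHSRP and PUM2, with differences from 0.72 to 1.65, and the lines of TIA1 and TIAL1 differ in direction between samples.

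The 3′ UTRs were searched on the transcript strand for short motifs, and matches describe letters only, not sites of binding. AUUUA was found in all 8 (69.5% of all 3′ UTRs), with 13 copies each in ELAVL1 and TIA1 and 1 in KHSRP. Among 3′ UTRs of a length like that of each, 76.5% (ZFP36) to 98.7% (ELAVL1) held it. The AU-rich nonamer UUAUUUAUU was present once in each of 5 of the 8, namely ELAVL1, ZFP36, ZFP36L1, ZFP36L2 and, outside the canonical transcript, TIAL1, against 9.31% of all 3′ UTRs. In 3′ UTRs of like length, the share with this nonamer was 21.1% for ELAVL1, 17.8% for TIAL1, 6.60% for ZFP36, 9.49% for ZFP36L1 and 9.32% for ZFP36L2. The mRNAs of the whole ZFP36 family thus hold the kind of element that their proteins bind. The nonamers of the canonical transcripts are shown in capitals with 10 nt on each side, at chr19:8026712-8026740 (minus) in ELAVL1, chr19:39899836-39899864 (plus) in ZFP36, chr14:69254794-69254822 (minus) in ZFP36L1 and chr2:43450587-43450615 (minus) in ZFP36L2.
ELAVL1 nonamer: auuuauguauUUAUUUAUUgaagugugaa
ZFP36 nonamer: uaugacgacuUUAUUUAUUcuaauaugau
ZFP36L1 nonamer: aacuguuggaUUAUUUAUUuuagaaauuc
ZFP36L2 nonamer: acuauuuaacUUAUUUAUUaucuugugaa

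Reads over a motif are those of listed bins that share at least 1 base with it. Of these 4, only the nonamer of ZFP36L2 touched listed bins, 2 in UACC-62 replicate 1 with 19 IP and 5 input reads and 1 in replicate 3 with 8 IP and 7 input reads, and its centre was listed in 1 of these samples. That of ELAVL1 starts at 1639 nt, past the end of the covered stretch. Of the 13 copies of AUUUA in ELAVL1, the first starts at 850 nt and 1 lay in a common peak. Of all 42 common peaks of these mRNAs, 1 held a whole AUUUA and 0 held a whole copy of another motif searched. Of the 24498 common 3′ UTR peaks of all genes, 3.79% held AUUUA, 0.65% UGUUUGU, 0.73% UGUGUGU and 0.32% the Pumilio element. The nonamer was in 0.016%, AAUAAA in 1.74% and AUUAAA in 1.07% of them. With shares this low, 0 of 42 lay near that of all common peaks for each of these other motifs.

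The GU-rich heptamer UGUUUGU was found in 5 of the 8 (27.0% of all 3′ UTRs), with 2 copies in ELAVL1 and 1 each in TIA1, TIAL1, KHSRP and PUM2. The share in 3′ UTRs of like length was 60.5%, 48.4%, 52.3%, 30.7% and 41.2% for these 5. UGUGUGU was found in 2 of the 8 (27.9% of all), with 3 copies in PUM2, of which 2 overlap, and 2 in TIA1, where the shares at like length were 43.8% and 50.8%. The ZFP36 family had neither. The copies of ELAVL1 are shown in capitals, at chr19:8028250-8028276 and chr19:8027196-8027222 on the minus strand, as they lie in the mRNA with the most common peaks.
ELAVL1 proximal heptamer: uuuucacaagUGUUUGUcuuugucuga
ELAVL1 distal heptamer, at 1157 nt: uuguguuuuuUGUUUGUuuuuacuuuu

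The bins over the proximal copy held 71, 67 and 120 IP reads and 21, 33 and 22 input reads. The copy at 1157 nt lies within a run of U and G between the 2 last blocks of common peaks. In SK-Mel-103 its listed bin had 12 IP reads without any input read. In UACC-62 replicate 3 there were 12 IP against 4 input reads. UACC-62 replicate 1 had no listed bin over it, so that its reads there are unknown. The bin with the most reads of this 3′ UTR adjoined the bin that holds this copy. Reads of 40 nt are longer than a bin of 20 nt, so those counted in the adjoining bin may also cover this GU-rich stretch. The counts therefore cannot show whether the reads lay on the stretch or beside it.

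The Pumilio element UGUANAUA was found in 2 of the 8, PUM2 and TIAL1, with 2 copies each, against 27.4% of all 3′ UTRs and 41.2% and 52.1% of those of like length. The copies of PUM2, the mRNA of a protein that binds this element, start at 427 and 687 nt and are shown in capitals (chr2:20450904-20450931 and chr2:20450644-20450671, minus strand).
PUM2 Pumilio element at 427 nt: uuuauagagaUGUAUAUAgaauuauagu
PUM2 Pumilio element at 687 nt: acagaaauauUGUAUAUAcuuacauaug

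Bins over the first held 29, 18 and 17 IP reads and 18, 15 and 12 input reads, and its centre was listed in every sample. The centre of the second was listed in no sample. The adjoining listed bin, which takes in only 1 base of it, held 19, 22 and 16 IP reads and 5, 12 and 12 input reads.

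Other regulators of RNA stability and translation, 40 genes related by function or family, were read for comparison. Of these, 28 had listed 3′ UTR bins in all 3 samples, 13 of them (46.4%) above 0 in every sample, 11 (39.3%) below 0 and 4 of mixed sign, where the shares over genes were 33.2% and 42.1%. A common peak was found in 18 of the 40 (45.0%), against 8.36% of 19704 genes. Of those 19704 genes, 8964 had listed 3′ UTR bins in all 3 samples. A common peak is set by a number of IP reads and does not require a ratio above 0, and YBX1, below 0 in every sample, had 7. The highest by the lowest of 3 values were CPEB3, a cytoplasmic polyadenylation factor (3.07, 4.02 and 3.68, without a common peak), CELF2 (3.31, 3.67 and 3.0) and CELF1 itself (2.98, 3.70 and 3.55, with 177 common peaks). Among the lowest were YBX1 (−2.35, −3.29 and −2.90) and IGF2BP3 (−1.42, −2.52 and −2.25), which bind mRNAs in the cytoplasm. The range from ELAVL1 to TIAL1 lay inside that of this wider list in each sample.

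Some facts of the libraries bear on these values. The listed bins held 10958459 to 14436573 IP reads and 8453517 to 10161917 input reads a sample, and 9.7%, 15.9% and 29.2% of the bins had no input read, the highest share in UACC-62 replicate 3. Of the melanocyte markers, SOX10 was listed in all samples, MITF had 18 input reads in SK-Mel-103 against 6036 and 5000 in UACC-62, and MLANA 18 against 826 and 926. TYR, DCT and S100B were not listed in SK-Mel-103, and PMEL and TYRP1 were not listed in any sample. The keratinocyte markers KRT5 and KRT14 and COL1A1 and CD3E were listed nowhere, whereas DCN had 1 bin and PTPRC 4 and 2 bins in UACC-62. The part of such differences between the lines in the ratios above was not tested. Antisense lncRNAs overlap 890 bases of the ELAVL1 3′ UTR and 826 of that of ZFP36L2, but of all 8 genes only PUM2 had a listed bin on the other strand, 1 bin with 4 IP reads in UACC-62 replicate 3.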

How the data were processed

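CELF1 RIP-Seq bin lists of 3 IP samples were used, which the authors had called one by one against the matching input. The 3 input samples were available only through a column of those lists. Groups and replicate numbers came from the sample titles. Per the paper's methods, RNA was depleted of rRNA, read as 40-nt single ends, aligned to GRCh37 with TopHat and called with Piranha (zero-truncated Poisson regression, bins of 20). The submitters' processing notes name TopHat2 2.0.4, Bowtie 0.12.7, SAMtools 0.1.16 and FastQC. The deposited counts are unnormalized numbers of IP reads in each bin. The deposited p-value is that of the peak caller, all under 0.05, and the lists do not state whether it was corrected. The covariate deposited by the authors was taken as scaled input reads, not as a ratio of IP to input. Input reads were recovered from it as multiples of its smallest step, with 0.01 taken as none (100.0% of values within 0.05 of a whole step).

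Genes came from GENCODE version 44 mapped to GRCh37, and bins were assigned by their centre, on the strand opposite to the listed one, to the union of 3′ UTRs, then coding region, 5′ UTR or other exon. Distances follow the canonical transcript and begin with the stop codon. All listed bins were summed. Background shares used the same rules over all protein-coding genes. 3′ UTRs of like length were 0.8 to 1.25 times as long. Copies were sought with blastn 2.17.0. Python 3.11.15, pandas 2.3.3, scipy 1.17.1 and pysam 0.24.0 were used, and the functions were checked on simulated data. No test across samples was run, as SK-Mel-103 has 1 sample. All 8 mRNAs are named in each result, and of the 40 related genes the 3 highest and 3 lowest, of which 1 is not reported here. The mRNAs, lists and motifs were chosen with earlier results of these data known. Alternatives were other read and p-value thresholds, strand, transcript, pseudocount, scaling, pairing of input and omission of either UACC-62 replicate. The input of each UACC-62 IP was the one with its number, as the authors paired them.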

Additional observations from a re-analysis of the deposited data

Results flagged for a closer look

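Log2 IP/input of the 3′ UTR had opposite signs in the lines for ZFP36L2 and PUM2. For ZFP36L2, SK-Mel-103 was at 0.30 and the UACC-62 mean at −0.28, a difference of 0.58. For PUM2, SK-Mel-103 was at 0.37 and the UACC-62 mean at −0.17, a difference of 0.54. Neither difference was tested, since SK-Mel-103 has 1 sample. Over 8964 genes the median of this difference was 0.27, and 12.2% of genes had opposite signs between the lines, in either direction. Each sample was also centred on the median of all genes listed in that sample, not of the 8964 listed in all 3. UACC-62 replicate 1 then moved above 0 for both, to 0.10 for ZFP36L2 and 0.14 for PUM2. Replicate 3 stayed below 0, at −0.44 and −0.26, and the signs no longer separated the lines.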

How the results depend on the processing

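The 2 mRNAs with a common 3′ UTR peak became 7 without the read filter, 1 with more than 100 IP reads and 0 on the strand as listed. Their 42 common peaks became 223, 11 and 0, and the share of all genes became 37.1%, 2.57% and 0.41%. The 2 mRNAs above input in every sample became 1 with bins of more than 30 IP reads only (50.5% of genes). They became 1 with all exonic bins (31.6% of genes), 4 without division by totals (39.9%) and 0 on the strand as listed (43.9%). Leaving out UACC-62 replicate 1 or 3 gave 2 mRNAs with a common peak and 2 above input each time, and 43 to 50 common peaks. The shares of genes were then 10.7% and 8.77% with a common peak, and 40.1% and 35.9% above input. Without the replicate block, the input of both UACC-62 replicates replaced the paired one, and only bins listed in both replicates were kept for UACC-62. Again 2 mRNAs were above input (28.5% of genes), and the UACC-62 means of TIA1, TIAL1 and PUM2 moved to −1.09, −1.69 and −0.28. This setting kept 25 of 82 TIA1 bins and 7 of 34 TIAL1 bins, so that input pairing and fewer bins cannot be told apart. With all exonic bins KHSRP reversed, to −0.51 (SK-Mel-103) and −0.63 (UACC-62). ZFP36L1 reversed without division by totals (0.30 for SK-Mel-103, 0.40 for UACC-62) and, in UACC-62, with bins of more than 30 IP reads (0.052) and when centred on the median gene (0.088). Of 149 single values under alternatives, 9 changed sign, these 6 and 3 of the mRNAs of mixed sign: PUM2 in SK-Mel-103 with all exonic bins (−0.27), which ended its opposite signs, and PUM2 (0.25) and ZFP36L2 (0.15) in UACC-62 without division by totals, which did so too. ELAVL1, TIA1 and TIAL1 had no change of sign. Counting peaks in any bin gives no number of common peaks. The causes were not tested, except that fewer bins or other scaling enter by construction. Few or no bins were listed for ZFP36, for TIAL1 in UACC-62 and for ZFP36L2 in SK-Mel-103, so their values rest on few reads or are missing.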
